A study of Mus musculus with 82 samples.

Results

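The circadian output genes described here are 10 genes that the molecular clock drives and that in part feed back on it: the repressors Per1, Per2, Per3, Cry1 and Ciart, the nuclear receptors Nr1d1 and Nr1d2, and the PAR bZIP transcription factors Dbp, Tef and Hlf. They were chosen by gene name, and all 10 were found among the 55401 genes of the count tables. The tables hold RNA-seq read counts per gene from aortic vascular smooth muscle cells (aVSMC) isolated from C57BL/6 mice. The study asked how simultaneous activation of the EGF receptor and of the receptors for angiotensin II or thromboxane A2 changes gene expression. U46619 is a stable agonist of the thromboxane receptor, and AngII stands for angiotensin II.

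After 24 h there were 7 groups of 6 libraries: control, EGF (10 µg/L), AngII (10 nM), U46619 (1 µM), both EGF mixtures (EGF+AngII and EGF+U46619) and the mixture of all 3 agonists (EGF+AngII+U46619), at the same doses. They form 6 culture sets from 6 mice, each with its own control. After 48 h there were 10 culture sets in 2 sequencing batches. By their labels these came from 5 mice, of which 1 supplied 5 sets and another 2, and the 5 sets with U46619 came from 4 mice. The paper's methods instead give a different mouse for every replicate, and the labels are followed here. Sets of 1 mouse are not independent animals, so p-values at 48 h measure the spread between cultures. The EGF/U46619 batch holds control, EGF, U46619 and EGF+U46619 in replicates 1 to 5. The EGF/AngII batch holds control, EGF, AngII and EGF+AngII in replicates 1, 2, 4, 5 and 6, so that control and EGF have 10 libraries at 48 h and the other 4 groups have 5. Library totals were 16483529 to 20818809 counts at 24 h and 19936925 to 33916114 at 48 h. All groups share what limits them as a model: these are passaged primary cells, their growth medium contained EGF, insulin and hydrocortisone, and serum and supplements were withdrawn for 24 h before the agonists were added. Each culture was sampled once, at 24 h or 48 h, and EGF+AngII+U46619 was sampled at 24 h only. With these times a change of level and a shift in the phase of a rhythm cannot be told apart.

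In mammalian cells the activators CLOCK and ARNTL (BMAL1) bind E-boxes and switch on the Per, Cry, Ciart, Nr1d and PAR bZIP genes, whose products then act back on this loop. PER and CRY proteins and CIART repress the activators, the REV-ERB receptors encoded by Nr1d1 and Nr1d2 repress Arntl and other genes through RRE elements, and DBP, TEF and HLF activate genes with D-boxes. The arterial wall has such a clock, and exchange or withdrawal of serum is known to set the clocks of cultured cells to a common phase.

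Before the members were compared, libraries were checked against the set their labels give. At 24 h each of the 42 libraries correlated best with its own set (r = 0.60 to 0.86, on log2 levels centred within treatments), the lowest being EGF+AngII+U46619 of replicate 3. At 48 h this held for 39 of 40 libraries, but for the control of replicate 2 in the EGF/AngII batch by a margin too small to tell its set (r = 0.68 with its own set and 0.68 with replicate 1). Its endothelial, fibroblast and macrophage marker sums were 1230.3, 167.1 and 245 FPM, beside 1803 to 2168, 63.0 to 100.1 and 41.8 to 42.5 FPM in the rest of its set. The control of replicate 4 in that batch had r = −0.33 with its own set and 0.90 with replicate 2. Its endothelial, fibroblast and macrophage marker sums were 1941, 85.5 and 40.5 FPM, while the other libraries of its set had 304 to 322, 1008 to 1118 and 125 to 139 FPM. Both are treated by their labels. The sets most alike were not always those of 1 mouse by label, but such correlations cannot tell which mouse a culture came from. All 4 libraries of replicate 5 in the EGF/U46619 batch (mouse 10) and all 4 of replicate 6 in the EGF/AngII batch (mouse 11) had each other's set as the next best after their own (r = 0.63 to 0.81). Replicate 4 of the EGF/AngII batch is labelled mouse 10 too, but none of its libraries had replicate 5 as the best other set. Fits with the mouse as a term take these labels as given. Where stated, log2 fold changes of members at 48 h are also given without the control of replicate 4 or without a whole set. The r values, the medians and the values of markers and other genes at 48 h include that control.

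The labelled cell type was checked against its markers. Of 8 smooth muscle markers, Acta2 was the most abundant, with a median of 2423 fragments per 1e6 (FPM) in the 24 h controls, while Tagln and Cnn1 were listed at 0 in every library. Both lie on chromosome 9, and all 7075 genes of chromosomes 9, X, Y and MT were listed at 0. Markers of other cells were measured too. Their sums in the 24 h controls of replicates 1 to 6 were 642, 543, 484, 251, 388 and 197 FPM for 7 fibroblast markers, led by Pdgfra, and 2.45, 2.15, 57.7, 684, 415 and 1905 FPM for 6 endothelial markers, led by Pecam1, of which Cdh5 was listed at 0. The sum of 6 macrophage markers, led by Lyz2, was 20.9 to 114 FPM in these libraries. The sets thus differed in endothelial marker RNA before any agonist was added. In bulk RNA, fewer cells of a type and less RNA per cell cannot be told apart.

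In the 24 h controls, Tef had the highest level per length of the 10 members, with a median of 14.2 FPM per kb of exon and a range of 9.55 to 24.4. Nr1d1 followed at 11.6 (10.2 to 13.3), inside the range of Tef. Per1 (5.86), Nr1d2 (5.24), Cry1 (4.96) and Dbp (4.85) formed a middle group with overlapping ranges. Per3 (1.46), Per2 (1.27) and Ciart (0.623) lay lower, and Hlf was lowest at 0.0789 FPM per kb. The ranges of Per3, Per2 and Ciart also overlapped, whereas the highest Hlf library (0.0888) lay below the lowest Ciart library (0.477). In the 48 h controls the order was Tef (12.0), Nr1d1 (12.0), Nr1d2 (9.89), Dbp (7.37), Per1 (3.79), Cry1 (3.33), Per3 (1.25), Ciart (1.07), Per2 (0.782) and Hlf (0.0840 FPM per kb). The time points were sequenced and normalised separately, so levels of 24 h and 48 h are set side by side without a test.

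A gene was called differentially expressed (DEG) when its false discovery rate (FDR) was below 0.05 in both edgeR and DESeq2, with the culture set as a term, and the larger of the 2 group means reached 5 FPM. It also had to pass the filter on low counts at both time points. All 10 members passed the filter on low counts at both time points. After 24 h with U46619, 3 of 10 members were DEG, beside 27.6% of the 14653 genes tested. Nr1d2 was higher (13.5% of genes tested were DEG and higher), and Per3 and Tef were lower (14.1% were DEG and lower). After EGF+U46619, 4 of 10 were DEG beside 33.1% of all genes, with Per2 and Nr1d2 higher (17.0% of all) and Per3 and Tef lower (16.1% of all). After EGF+AngII+U46619, Per3 and Tef were lower, 2 of 10 members beside 34.3% of all genes tested, of which 18.1% were higher and 16.2% lower. The members' shares were near those of all genes with U46619 and EGF+U46619 and lower with EGF+AngII+U46619, and nothing particular to clock outputs is read from counts among 10 genes. The median log2 fold change of the 10 members was −0.18 with U46619, −0.10 with EGF+U46619 and −0.21 with EGF+AngII+U46619, beside −0.06, −0.05 and −0.04 over all genes tested. These 3 comparisons share their control libraries.

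Per3, a PER family member with a lesser role in the core loop, had the largest decrease among the DEG members at 24 h. Its level in the 24 h controls was 19.3, 19.5, 8.82, 6.51, 11.3 and 16.9 FPM in replicates 1 to 6. With U46619 the same sets had 5.28, 6.93, 5.66, 4.50, 6.01 and 11.5 FPM. Every set was lower, most in replicates 1 and 2, where the control was highest. Each change is measured from that same control, so no link between its size and the control level is read. The groups overlapped because the controls of replicates 3, 4 and 5 lay below the U46619 library of replicate 6. The log2 fold change was −0.97 ± 0.29 (SE) with an edgeR FDR of 0.00952. Without replicate 1 it was −0.81 and no longer passed (edgeR FDR 0.0633). With EGF+U46619 the level was lower in 5 of 6 sets, with 4.41, 6.54 and 13.0 FPM as lowest, median and highest value, and the log2 fold change was −0.83 ± 0.29 (edgeR FDR 0.0208). That call was lost without replicate 1 (−0.71, edgeR FDR 0.0910), replicate 2 (−0.68, 0.0798) or replicate 5 (−0.73, 0.0870). With EGF+AngII+U46619 all 6 sets were lower, with 6.21, 4.48, 1.21, 6.08, 7.32 and 11.6 FPM in replicates 1 to 6. The fold change was −1.15 ± 0.29 (edgeR FDR 0.00188), and it kept its call whichever replicate was left out. Without the culture set as a term none of the 3 calls of Per3 was made, at edgeR FDR 0.138, 0.165 and 0.0657, and in a fit of these groups alone EGF+AngII+U46619 missed the threshold too (0.0552). Over the alternatives tried, the edgeR or DESeq2 FDR of Per3 ranged from 0.00270 to 0.138 with U46619, from 0.00857 to 0.165 with EGF+U46619 and from 0.000227 to 0.0657 with EGF+AngII+U46619.

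Per2, whose product forms the core of the PER and CRY repressor complex, was the only PER gene that was a DEG and higher than control at 24 h, with EGF+U46619. The 24 h controls had 9.64, 4.87, 7.14, 4.04, 8.71 and 7.68 FPM in replicates 1 to 6, and EGF+U46619 had 10.4, 7.77, 11.5, 6.64, 19.1 and 8.99 FPM. All 6 sets were higher than their control, by the most in replicate 5, and the groups overlapped. The log2 fold change was 0.62 ± 0.24 (edgeR FDR 0.0404). The call was lost without replicate 2 (0.62, edgeR FDR 0.111), replicate 4 (0.62, 0.0899) or replicate 5 (0.54, 0.135), with no filter on low counts (0.0673) and without the culture set as a term (0.348), a range over all alternatives of 0.0139 to 0.348. With U46619 alone Per2 was also higher in 6 of 6 sets (5.05, 9.55 and 18.3 FPM as lowest, median and highest), with a fold change of 0.55 ± 0.24 that did not pass (edgeR FDR 0.0811). It passed without replicate 3 (0.59, edgeR FDR 0.0279) and in a fit of these groups alone (0.53, 0.0487), and without the EGF+AngII+U46619 library of replicate 3, left out after seeing the data (0.57, 0.0319), within a range of 0.0279 to 0.442. With EGF+AngII+U46619 it was higher in 5 of 6 sets, at 2.34, 7.74 and 16.2 FPM, the lowest value being that of replicate 3.

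Per1, the PER gene that responds first to many acute stimuli, did not pass in any comparison with control at 24 h. Its lowest, median and highest levels were 18.1, 33.0 and 38.6 FPM in controls and 20.6, 27.6 and 30.7 FPM with U46619, lower in 5 of 6 sets (log2 fold change −0.17 ± 0.19, edgeR FDR 0.526). That value ranged from −0.32 to −0.0225 over the alternatives. Cry1, the strongest repressor partner of the PER proteins, had 15.4, 16.6 and 23.9 FPM in controls and 12.6, 19.3 and 21.6 FPM with U46619. It was higher in 3 sets and lower in 3, with a fold change of −0.01 ± 0.12 (edgeR FDR 0.973). Over all 7 groups, Per1 ranged from 13.7 to 46.1 FPM and Cry1 from 10.9 to 28.9 FPM, and neither gene separated any group from another.

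Ciart (CHRONO), a repressor of the activator complex, lay below the 5 FPM minimum for a DEG in every group mean, yet it had the largest fold change of the members higher with U46619. The 24 h controls had 2.04, 1.49, 1.31, 1.33, 1.87 and 1.08 FPM in replicates 1 to 6 and the U46619 libraries 5.68, 2.97, 1.34, 3.90, 5.23 and 2.96 FPM. It was higher in 6 of 6 sets, barely so in replicate 3, and the other 5 U46619 libraries lay above the highest control. The log2 fold change was 1.23 ± 0.25 with an edgeR FDR of 0.000371 and a DESeq2 FDR of 2.28e-05. It was 1.44 ± 0.25 with EGF+U46619 (edgeR FDR 4.16e-05; 2.02, 4.11 and 7.39 FPM as lowest, median and highest) and 1.28 ± 0.25 with EGF+AngII+U46619 (edgeR FDR 0.000138; 1.93, 3.40 and 6.91 FPM), higher in 6 of 6 sets each time. Without the FPM minimum, 33.2%, 39.7% and 41.8% of all genes tested passed in these 3 comparisons. Counts of Ciart were 18 to 144 per library at 24 h, and their median of 45 was the lowest of the members apart from Hlf (7). Under every alternative tried Ciart stayed below an FDR of 0.05 in these comparisons, with highest values of 0.0155, 0.0127 and 0.0325.

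**Figure D1:**
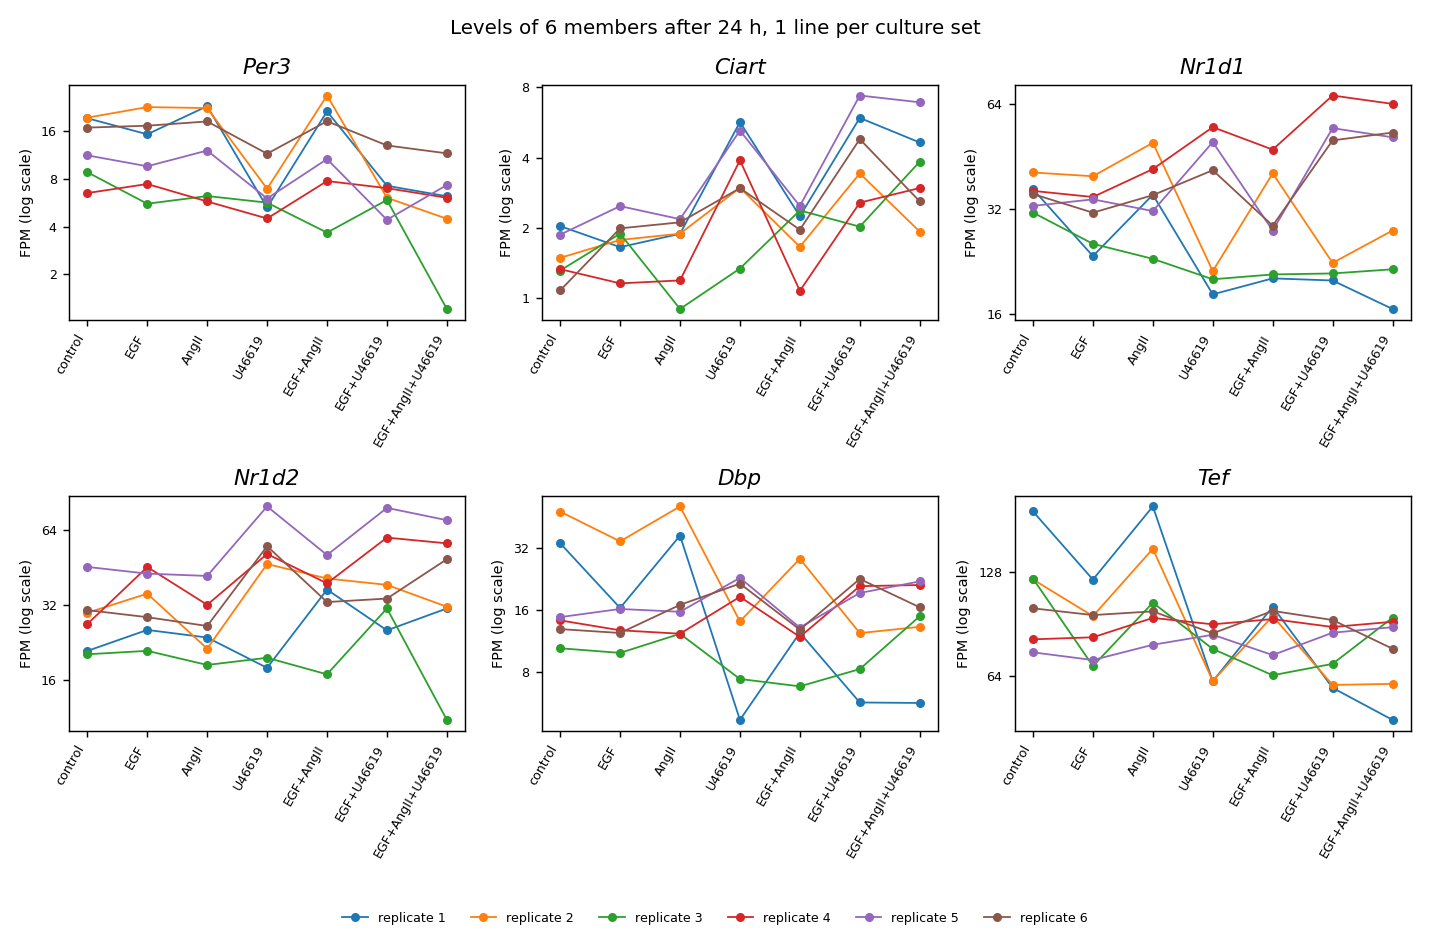
Levels of 6 members in each library after 24 h, in FPM on a log scale, with 1 line for each culture set from replicate 1 to 6. Per3 lay lower with U46619 in 6 of 6 sets and Ciart higher in 6 of 6, whereas Nr1d1 and Dbp were lower in 3 sets and higher in 3.

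Nr1d2 (REV-ERBβ) was the REV-ERB gene with a call. The 24 h controls had 20.9, 29.8, 20.3, 26.8, 45.5 and 30.6 FPM in replicates 1 to 6, and U46619 had 17.9, 46.8, 19.7, 51.3, 79.6 and 55.1 FPM. Replicates 2, 4, 5 and 6 were higher, replicates 1 and 3 slightly lower, and the groups overlapped. The log2 fold change was 0.53 ± 0.19 (edgeR FDR 0.0301). The call was lost without any of the 4 sets that were higher, that is without replicate 2 (0.51, edgeR FDR 0.0975), 4 (0.48, 0.103), 5 (0.49, 0.102) or 6 (0.50, 0.0704), in a fit of these groups alone (0.0569) and without the culture set as a term (0.276). With EGF+U46619 all 6 sets were higher, at 25.3, 38.6, 31.1, 59.7, 78.6 and 33.98 FPM, with a fold change of 0.57 ± 0.19 (edgeR FDR 0.0167). This call was lost without replicate 4 (0.48, 0.0920) or 5 (0.54, 0.0598) and without the culture set as a term (0.248). Over the alternatives the FDR of Nr1d2 ranged from 0.00564 to 0.276 with U46619 and from 0.00420 to 0.248 with EGF+U46619. With EGF+AngII+U46619 the fold change was 0.41 ± 0.19 (edgeR FDR 0.0824), higher in 5 of 6 sets and 11.1 FPM in replicate 3. Without that library, which was left out after seeing the data and in part because of its low Nr1d2, the fold change was 0.59 (edgeR FDR 0.00603), and without all of replicate 3 it was 0.61 (0.00726), within a range of 0.00603 to 0.334. Nothing is read from these values here.

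Nr1d1 (REV-ERBα), the more abundant REV-ERB gene per length, did not pass in any comparison, with a wide spread between sets. Its controls were close to each other at 36.6, 40.8, 31.3, 36.2, 32.8 and 35.4 FPM in replicates 1 to 6. The U46619 libraries had 18.3, 21.3, 20.2, 55.1, 49.9 and 41.4 FPM. Replicates 1, 2 and 3 were lower and replicates 4, 5 and 6 higher, and no U46619 library lay inside the range of the controls. The fold change over all sets was −0.19 ± 0.23 (edgeR FDR 0.533), and the mean change per set −0.18 ± 0.74 (SD, n = 6, on log2 levels after adding 0.5 FPM). The former ranged from −0.35 to −0.0076 over the alternatives.

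Dbp, a D-box activator with a strong rhythm in most tissues, split the sets in the same order. Its controls had 33.7, 48.0, 10.4, 14.3, 14.8 and 12.9 FPM in replicates 1 to 6 and the U46619 libraries 4.70, 14.1, 7.41, 18.5, 22.9 and 21.5 FPM. Replicates 1, 2 and 3 were lower, by the most in replicate 1, and replicates 4, 5 and 6 were higher. The mean change per set was −0.54 ± 1.41 (SD, n = 6) and the fold change −0.52 ± 0.38 (edgeR FDR 0.297). That fold change ranged from −0.76 to −0.06 over the alternatives. With EGF+U46619 the levels were 5.70, 12.4, 8.28, 20.9, 19.4 and 22.6 FPM, again lower in replicates 1, 2 and 3 and higher in 4, 5 and 6. The levels with EGF+AngII+U46619 were 5.67, 13.3, 14.9, 21.15, 22.0 and 16.5 FPM, lower in replicates 1 and 2 only and higher in replicate 3 as well as 4, 5 and 6. The endothelial marker sums given above were lowest in the controls of replicates 1, 2 and 3 and the fibroblast sums highest there, and whether cell makeup plays a part in the split was not tested.

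Tef, the member with the highest level per length, was lower with U46619 in replicates 1, 2, 3 and 6. Its controls had 192, 122, 123, 82.0, 75.1 and 100.8 FPM in replicates 1 to 6, and the U46619 libraries 61.9, 62.1, 76.9, 90.6, 84.5 and 85.3 FPM. Replicates 4 and 5 were slightly higher, and the groups overlapped. The log2 fold change was −0.56 ± 0.21 (edgeR FDR 0.0384). It was −0.32 without replicate 1 (edgeR FDR 0.178), and the call was also lost without replicate 2 (−0.47, 0.157), 3 (−0.53, 0.0790) or 6 (−0.58, 0.0695), without the culture set as a term (0.0779) and in a fit of these groups alone (0.119). With EGF+U46619, at 59.3, 77.6 and 93.2 FPM as lowest, median and highest, the fold change was −0.57 ± 0.21 (edgeR FDR 0.0292), lower in 4 of 6 sets, and −0.33 without replicate 1 (0.148), −0.48 without replicate 2 (0.128) and −0.52 without replicate 3 (0.0788). It was −0.55 ± 0.21 with EGF+AngII+U46619 (edgeR FDR 0.0354; 47.9, 82.9 and 94.7 FPM), lower in 4 of 6 sets, and −0.27 without replicate 1 (0.230), −0.45 without replicate 2 (0.143) and −0.53 without replicate 6 (0.0826). With no filter on low counts that call was lost by DESeq2 alone (edgeR FDR 0.0335). Without the culture set as a term the last 2 calls were not made either, at 0.0522 and 0.0513, nor in a fit of these groups alone, at 0.129 and 0.250. Over the alternatives the FDR ranged from 0.0251 to 0.178 with U46619, from 0.0168 to 0.148 with EGF+U46619 and from 0.0179 to 0.250 with EGF+AngII+U46619.

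Hlf, a PAR bZIP gene with a D-box activity like that of Dbp, was near the limit of detection, with 0 to 49 counts per library at 24 h. Its lowest, median and highest levels were 0, 0.527 and 0.593 FPM in controls, 0.354, 0.810 and 2.31 FPM with EGF, and 0, 0.132 and 0.366 FPM with U46619. It was lower with U46619 in 5 of 6 sets and at 0 in both libraries of replicate 4, with a fold change of −1.27 ± 0.57 that did not pass (edgeR FDR 0.0820). Its FDR ranged from 0.0383 to 0.336 over the alternatives, with group means below the FPM minimum. Fold changes at this depth rest on few counts.

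**Figure D2:**
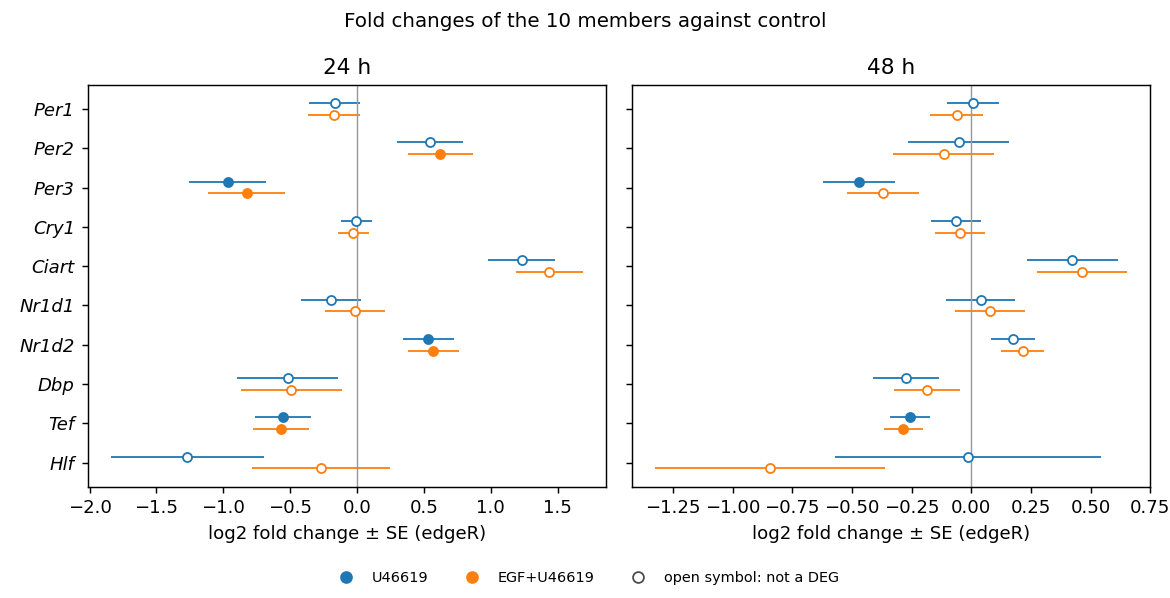
Log2 fold changes of the 10 members against control after 24 h (left) and 48 h (right) with U46619 and with EGF+U46619, as points with SE from edgeR, filled where the gene was a DEG. The horizontal scales differ between the panels. Per3 lay left of 0 at −0.97 and −0.83 after 24 h and at −0.47 and −0.37 after 48 h, and Ciart right of 0 throughout, below the FPM minimum.

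EGF and AngII were tested against control in the same way. At 24 h, 0 of 10 members were DEG with EGF (0.0273% of all genes tested), 2 had an unadjusted p under 0.05 in edgeR and 2 in DESeq2. Per2 was higher in 6 of 6 sets, at 22.3, 7.53, 10.3, 5.25, 11.2 and 11.9 FPM in replicates 1 to 6, with a log2 fold change of 0.65 ± 0.24 (edgeR FDR 0.157). Hlf was the other (1.06 ± 0.49, edgeR FDR 0.243). With AngII, 0 of 10 were DEG (0.0% of all genes), and 0 had an unadjusted p under 0.05 in edgeR or DESeq2. With EGF+AngII, 0 of 10 were DEG (3.11% of all genes), with 1 member under an unadjusted p of 0.05 in edgeR and 1 in DESeq2, Per2 (0.61 ± 0.25, edgeR FDR 0.118), higher in 5 of 6 sets. It passed without the EGF+AngII+U46619 library of replicate 3 (0.67, edgeR FDR 0.0435), left out after seeing the data, within a range of 0.0435 to 0.627, from which nothing is read. Dbp was lower in 6 of 6 sets with EGF+AngII, at 6.83, 12.6 and 28.3 FPM as lowest, median and highest against 10.4, 14.5 and 48.0 FPM in controls. The median log2 fold change of the members was −0.01 with EGF, 0.03 with AngII and 0.03 with EGF+AngII, beside −0.03, −0.01 and −0.03 over all genes.

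Differences between incubations at 24 h were tested in the same fit. U46619 against EGF gave 1 DEG among the members beside 11.2% of all genes. This was Per3 (−0.83 ± 0.29, edgeR FDR 0.0483), a call lost without replicate 1 (−0.72, 0.170), 2 (−0.64, 0.221), 4 (−0.87, 0.0859), 5 (−0.87, 0.103) or 6 (−0.88, 0.0838), with no filter on low counts (0.0510) and without the culture set as a term (0.440), within a range of 0.00774 to 0.440. Ciart (0.96 ± 0.25, edgeR FDR 0.00876) and Hlf (−2.33 ± 0.55, edgeR FDR 0.00433, at most 1.01 FPM in a group mean) passed both tools below the FPM minimum, as 13.3% of all genes did without it. Over the alternatives the FDR of Ciart reached 0.184 and that of Hlf 0.171. EGF+U46619 against EGF gave 0 DEG (13.2% of all genes), with 3 members under an unadjusted p of 0.05 in edgeR and 3 in DESeq2. Among them, Ciart passed both tools below the minimum (1.16 ± 0.25, edgeR FDR 0.00164, 15.7% of all genes without the minimum), which it missed without the culture set as a term (0.0565), within a range of 9.15e-05 to 0.0565, and Per3 did not pass (−0.69 ± 0.29, edgeR FDR 0.0949). Without replicate 3 Per3 passed (−0.88, edgeR FDR 0.0186), as it did without the EGF+AngII+U46619 library of that replicate (−0.72, 0.0454), within a range of 0.0186 to 0.464. Hlf, also below the FPM minimum, ranged from −1.55 to −1.18 over the alternatives, with an FDR of 0.0302 to 0.562. By FDR alone 1 member passed in edgeR and 2 in DESeq2.

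Further contrasts asked what an added agonist changed. EGF+U46619 against U46619, the interaction of EGF and U46619, EGF+AngII against EGF, and EGF+AngII+U46619 against EGF+U46619 each gave 0 DEG among the members and 0.0% of all genes, and 0 members had an unadjusted p under 0.05 in edgeR or DESeq2. Per2, a DEG with EGF+U46619 and not with U46619, differed between them by 0.08 ± 0.24, and its interaction was −0.57 ± 0.34. Nr1d2 differed by −0.16 ± 0.19 between EGF+AngII+U46619 and EGF+U46619.

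After 48 h with U46619, 2 of 10 members were DEG, Per3 and Tef, both lower, beside 9.77% of the 15796 genes tested, of which 5.29% were higher and 4.48% lower. With EGF+U46619, 1 of 10 was a DEG, Tef, lower, beside 13.7% of all genes (7.0% higher and 6.73% lower). The members' share was above that of all genes with U46619 and below it with EGF+U46619, and nothing is read from these counts. The median log2 fold change of the members was −0.03 with U46619 and −0.09 with EGF+U46619, beside −0.02 and −0.02 over all genes.

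Per3 in the EGF/U46619 batch at 48 h had 13.1, 13.5, 8.70, 6.24 and 8.35 FPM in the controls of replicates 1 to 5 and 8.96, 7.41, 7.21, 6.74 and 7.21 FPM with U46619. Replicates 1, 2, 3 and 5 were lower and replicate 4 slightly higher, and the groups overlapped. The log2 fold change over both batches was −0.47 ± 0.15 (edgeR FDR 0.0385). In the EGF/U46619 batch alone, which holds all U46619 libraries, it was −0.36 and did not pass (edgeR FDR 0.120). The controls of the EGF/AngII batch, which enter the pooled fit through the treatments they share, had 15.4, 16.6, 15.4, 11.0 and 7.12 FPM in replicates 1, 2, 4, 5 and 6. The call was lost without replicate 1 (−0.42, 0.155), 2 (−0.36, 0.167) or 3 (−0.49, 0.102) of the EGF/U46619 batch and without replicate 1 (−0.46, 0.0615) or 2 (−0.45, 0.0636) of the EGF/AngII batch. It was also lost with no filter on low counts (0.0687), without the culture set as a term (0.252), in a fit of these groups alone (0.121) and with the mouse numbers as the term (0.0648), or these with the batch (0.266). Without the control of replicate 4 in the EGF/AngII batch it was −0.46 (0.0286), and over all alternatives the FDR ranged from 0.0201 to 0.266. With EGF+U46619 the levels were 11.7, 6.38, 7.96, 6.73 and 8.01 FPM and the fold change −0.37 ± 0.15 did not pass (edgeR FDR 0.0922, and 0.256 at −0.26 in the EGF/U46619 batch alone, within a range of 0.0620 to 0.454). Per set, replicate 2 changed by −1.02 and the others by −0.15 to 0.10. The fold change ranged from −0.55 to −0.19 over the alternatives. Without the control of replicate 4 in the EGF/AngII batch it was −0.36 (0.0781).

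Tef in the EGF/U46619 batch had 106, 89.4, 94.7, 83.4 and 81.7 FPM in the controls of replicates 1 to 5, 83.0, 62.6, 81.4, 76.8 and 72.2 FPM with U46619, and 88.1, 52.8, 81.1, 75.1 and 73.9 FPM with EGF+U46619. Each set was lower than its control with both incubations, most in replicate 2, and among the treated libraries those of replicate 1 lay above the lowest control. With U46619 the fold change was −0.26 ± 0.08 (edgeR FDR 0.0388), and −0.28 in the EGF/U46619 batch alone (0.0204). With EGF+U46619 it was −0.28 ± 0.08 (edgeR FDR 0.0166), and −0.30 in that batch alone (0.0102). Without the control of replicate 4 in the EGF/AngII batch these were −0.27 (0.0211) and −0.29 (0.00832). The U46619 call was lost without replicate 1 (−0.23, 0.170), 2 (−0.20, 0.154), 3 (−0.26, 0.121) or 4 (−0.29, 0.0517) of the EGF/U46619 batch and replicate 1 (−0.25, 0.0546), 2 (−0.24, 0.0636) or 5 (−0.25, 0.0547) of the EGF/AngII batch. The EGF+U46619 call was lost without replicate 1 (−0.29, 0.0513), 2 (−0.17, 0.176) or 3 (−0.29, 0.0593) of the EGF/U46619 batch. With the mouse numbers as the term in place of the culture set the values were −0.36 (0.0701) for U46619, and with mouse and batch −0.26 (0.289) and −0.29 (0.175). Without a set term they were −0.37 (0.175) and −0.39 (0.116), with no filter on low counts −0.26 (0.128) and −0.28 (0.0653), and with only the groups compared the EGF+U46619 value was −0.31 (0.0968). The FDR ranged from 0.0115 to 0.289 for U46619 and from 0.00410 to 0.176 for EGF+U46619.

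**Figure D3:**
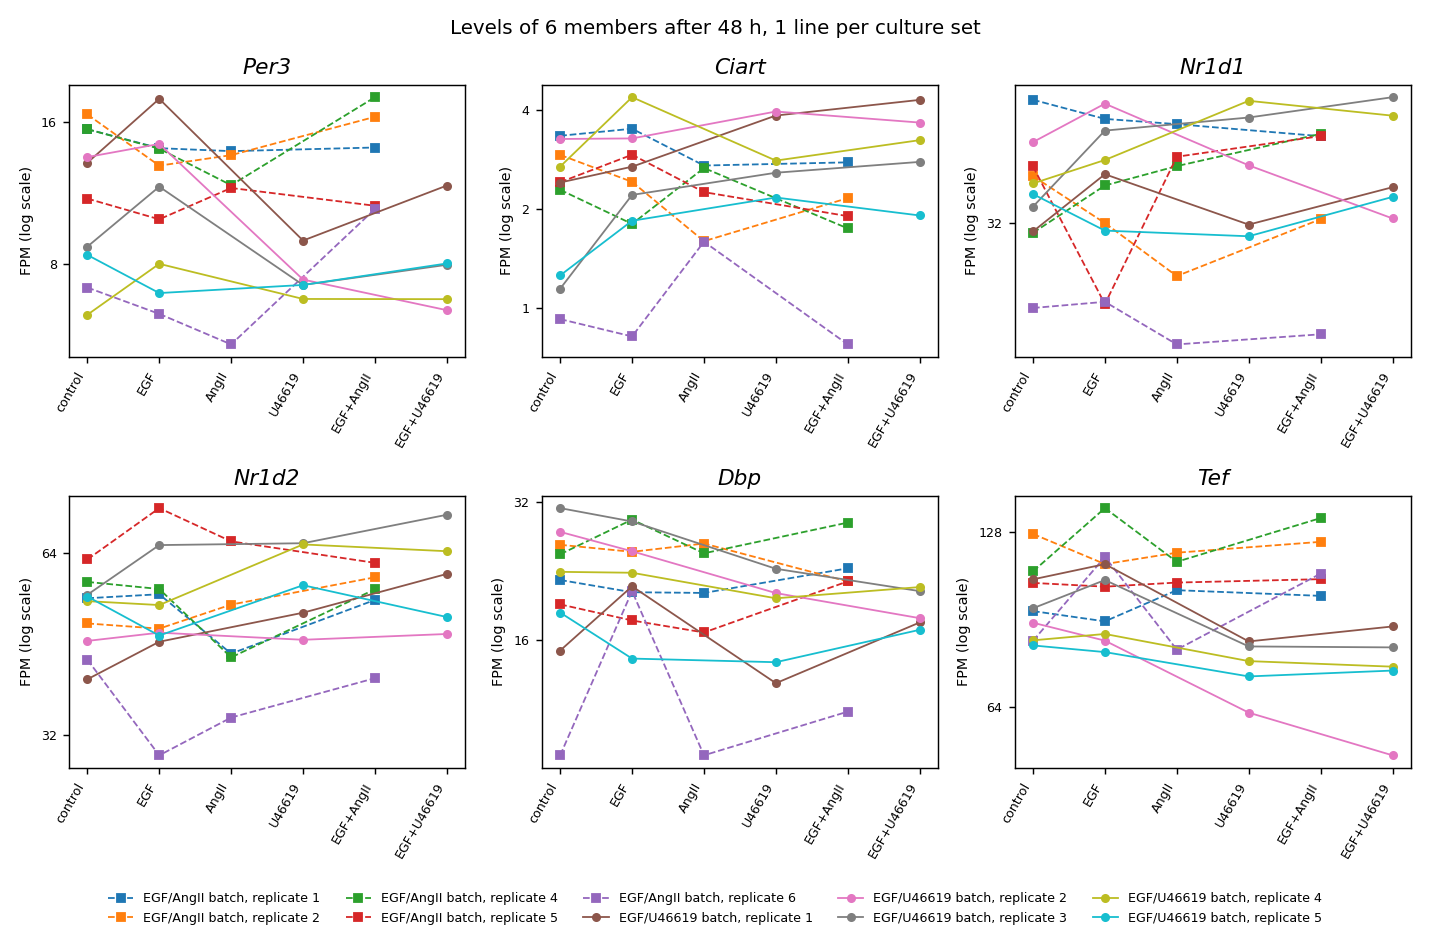
Levels of 6 members in each library after 48 h, in FPM on a log scale, with 1 line for each culture set; circles with full lines are the EGF/U46619 batch and squares with dashed lines the EGF/AngII batch. Tef lay below its control with U46619 and with EGF+U46619 in 5 of 5 sets, and the lines of Nr1d1 crossed.

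The other members did not pass against control at 48 h. Dbp was lower in 5 of 5 sets with U46619, with 15.2, 27.6, 31.1, 22.5 and 18.3 FPM in the controls of replicates 1 to 5 and 12.9, 20.2, 22.9, 19.7 and 14.3 FPM with U46619. The fold change was −0.27 ± 0.14 (edgeR FDR 0.214) over both batches and −0.34 (0.0431) in the EGF/U46619 batch alone, where it passed. It also passed in a fit of these groups alone (−0.33, 0.0271) and without replicate 6 of the EGF/AngII batch (−0.34, 0.0280), a range of 0.0271 to 0.635 over the alternatives. It was −0.28 (0.157) without the control of replicate 4 in the EGF/AngII batch. This differs from 24 h, where 3 of 6 sets were higher, and the difference between the time points was not tested. Ciart was higher in 5 of 5 sets with U46619 (2.17, 2.81 and 3.96 FPM as lowest, median and highest, fold change 0.42 ± 0.19, edgeR FDR 0.15) and with EGF+U46619 (1.91, 3.24 and 4.29 FPM, 0.46 ± 0.19, 0.0936), beside 1.15, 2.41 and 3.27 FPM in the controls of that batch. In that batch alone the values were 0.55 (edgeR FDR 0.0351) and 0.60 (0.0190), below the FPM minimum, within ranges of 0.0351 to 0.528 and 0.0190 to 0.440. Over both batches without the control of replicate 4 in the EGF/AngII batch they were 0.42 (0.121) and 0.47 (0.0730).

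Nr1d2 at 48 h was higher in 5 of 5 sets with U46619, with 39.5, 45.8, 54.5, 53.2 and 54.2 FPM in the controls of replicates 1 to 5 and 50.9, 46.0, 66.3, 66.0 and 56.5 FPM with U46619 (0.17 ± 0.09, edgeR FDR 0.224). Replicate 2 differed by the least. With EGF+U46619 it was higher in 4 of 5 sets (0.22 ± 0.09, edgeR FDR 0.104), and it passed in the EGF/U46619 batch alone (0.25, 0.0376) and without replicate 6 of the EGF/AngII batch (0.24, 0.0399), within a range of 0.0376 to 0.547. Without the control of replicate 4 in the EGF/AngII batch the fold changes of Nr1d2 were 0.18 (0.169) with U46619 and 0.22 (0.0732) with EGF+U46619. In the EGF/U46619 batch Per1 ranged from 14.3 to 37.3 FPM in controls and from 20.2 to 30.0 FPM with U46619, and Cry1 from 10.4 to 13.2 FPM and from 8.78 to 15.4 FPM. Per2 ranged from 3.25 to 5.38 FPM in these controls and from 2.21 to 8.16 FPM with U46619, and Nr1d1 from 30.9 to 44.5 FPM and from 30.3 to 52.7 FPM. For all 4 genes the groups overlapped. Per1 (0.01 ± 0.11), Cry1 (−0.06 ± 0.10), Per2 (−0.05 ± 0.21), Nr1d1 (0.04 ± 0.15) and Hlf (−0.01 ± 0.56) had U46619 fold changes near 0 after 48 h, and each of them changed sign under at least 1 alternative. In the EGF/U46619 batch alone Per2 was 0.11 and Hlf 0.22. Over all alternatives Hlf ranged from −0.91 to 0.38. With both batches but not the control of replicate 4 in the EGF/AngII batch, Per1 was 0.01, Cry1 −0.09, Per2 −0.05, Nr1d1 0.02 and Hlf 0.09, so that Hlf changed sign.

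EGF and AngII gave no call among the members at 48 h. With EGF and with AngII, 0 of 10 were DEG (0.0% and 0.0% of all genes), and 0 members had an unadjusted p under 0.05 in edgeR or DESeq2. With EGF+AngII, 0 of 10 were DEG (0.0% of all genes), with 1 under an unadjusted p of 0.05 in edgeR and 1 in DESeq2, Per2 (0.47 ± 0.20, edgeR FDR 0.955; 4.98, 5.02, 7.22, 6.71 and 7.90 FPM in replicates 1, 2, 4, 5 and 6). Per2 was higher in 4 of 5 sets, against controls of 5.85, 4.76, 4.61, 4.05 and 5.61 FPM. Without the control of replicate 4 the fold change was 0.45 (edgeR FDR 0.762), within a range of 0.638 to 1, and the level was higher in 3 of 4 sets. The median log2 fold change of the members was 0.04 with EGF, −0.02 with AngII and 0.10 with EGF+AngII, beside −0.01 each over all genes.

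Between incubations at 48 h, U46619 against EGF gave 2 DEG among the members beside 9.47% of all genes. They were Per3 (−0.48 ± 0.15, edgeR FDR 0.0314) and Tef (−0.33 ± 0.08, edgeR FDR 0.00857). The Per3 call was lost without replicate 1 (−0.38, 0.194), 2 (−0.36, 0.142) or 3 (−0.46, 0.112) of the EGF/U46619 batch, without a set term (0.270), with only the groups compared (0.0505) and with mouse (0.0708) or mouse and batch (0.233) as terms, within a range of 0.0174 to 0.270. The Tef call was lost without replicate 1 of that batch (−0.30, 0.0654), without a set term (0.0988) and with mouse and batch (0.144), within a range of 0.00280 to 0.144. Dbp did not pass (−0.39 ± 0.14, edgeR FDR 0.0716), but did without replicate 6 of the EGF/AngII batch (−0.32, 0.0387), within a range of 0.0387 to 0.590. EGF+U46619 against EGF gave 1 DEG beside 12.1% of all genes, Tef (−0.36 ± 0.08, edgeR FDR 0.00374), a call kept with each set left out in turn and lost without a set term (0.0649) and with mouse and batch (0.0873), within a range of 0.000883 to 0.0873. Per3 did not pass there (−0.38 ± 0.15, edgeR FDR 0.0809) but did without replicate 5 of the EGF/U46619 batch (−0.50, 0.0400), within a range of 0.0400 to 0.422. EGF+U46619 against U46619, the interaction, and EGF+AngII against EGF each gave 0 DEG among the members and 0.0% of all genes. In the first 2 of these 0 members had an unadjusted p under 0.05 in edgeR or DESeq2, and in EGF+AngII against EGF 2 did in each tool, Per1 (0.24 ± 0.11, edgeR FDR 0.944) and Ciart (−0.41 ± 0.20, edgeR FDR 0.944). These were 0.24 (0.799) and −0.40 (0.799) without the control of replicate 4, within ranges of 0.528 to 1 and 0.581 to 1. Ciart was lower than control in 5 of 5 sets with EGF+AngII, and in 4 of 4 without replicate 4.

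The 48 h contrasts with EGF were also fitted without the control of replicate 4 in the EGF/AngII batch. For U46619 against EGF, Per3 was then −0.49 (edgeR FDR 0.0199), Tef −0.32 (0.00658) and Dbp −0.38 (0.0618). For EGF+U46619 against EGF, Tef was −0.35 (edgeR FDR 0.00281) and Per3 −0.39 (0.0590), so that no call changed.

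Markers of other cells moved with the same incubations. With U46619 at 24 h, 5 of 7 fibroblast markers fell (median log2 fold change −1.24), beside 14.1% of all genes DEG and lower. Their summed level was 130, 151.3 and 295 FPM as lowest, median and highest against 197, 436 and 642 FPM in controls. Of 6 smooth muscle markers tested, Acta2 (2.05) and Lmod1 (0.84) rose, beside 13.5% of all genes DEG and higher. The median log2 fold change of the 6 was 0.25. The median sum was 11969 FPM against 2627 FPM in controls, and Acta2 alone had medians of 11563 and 2423 FPM. Of 5 endothelial markers tested Cldn5 fell (−0.96), and of 3 macrophage markers Lyz2 fell (−1.31) and Csf1r rose (1.08). With EGF+U46619 and with EGF+AngII+U46619 at 24 h, 6 of 7 fibroblast markers fell, beside 16.1% and 16.2% of all genes DEG and lower. In both, 1 of 5 endothelial markers fell, and of 3 macrophage markers 1 rose and 1 fell. Of 6 smooth muscle markers, 1 rose with EGF+U46619 and 2 with EGF+AngII+U46619. Of 4 reference genes, 3 rose in both, and 1 fell with EGF+AngII+U46619. With EGF+U46619 at 48 h, 4 of 6 smooth muscle markers fell, Myh11 by the most (−1.10), as did 4 of 7 fibroblast markers. In that comparison 6.73% of all genes tested were DEG and lower. With U46619 at 48 h, 3 of 7 fibroblast and 0 of 6 smooth muscle markers were DEG, beside 9.77% of all genes tested. Of the smooth muscle markers, 2 had an unadjusted p under 0.05 in edgeR. Of the other markers at 48 h, Cldn5 (−1.72), 1 of 5 endothelial, and Lyz2 (−1.01), 1 of 6 macrophage markers, fell with U46619, as they did with EGF+U46619 (−0.76 and −1.30). Unlike Lyz2, the 6 macrophage markers had a median log2 fold change above 0, at 0.70 with U46619 and 0.33 with EGF+U46619. The part of cell makeup in the changes of Per3, Tef, Nr1d2 and Ciart was not tested. Of the reference genes, Gapdh (1.24) and Hsp90aa1 (1.19) rose and Eef2 (−0.52) fell with U46619 at 24 h, and at 48 h 3 of 4, Gapdh, Hsp90aa1 and Hsp90ab1, rose with U46619 and with EGF+U46619. Of all genes tested at 48 h, 5.29% and 7.0% were DEG and higher in these comparisons.

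The activators that drive the members were given by a list. Of Arntl, Arntl2, Clock and Npas2, 0 of 4 were DEG with U46619, EGF+U46619 or EGF+AngII+U46619 at 24 h, and in each of these edgeR gave 0 of them an unadjusted p under 0.05. With U46619 at 24 h the log2 fold changes were −0.28 for Arntl (edgeR FDR 0.352), 0.34 for Clock (0.269), −0.21 for Npas2 (0.663) and 0.04 for Arntl2 (0.885). At 48 h Arntl2, a paralog of Arntl, rose with U46619 (0.40, edgeR FDR 0.00678) and EGF+U46619 (0.52, 0.000331), 1 of 4 in each beside 9.77% and 13.7% of all genes. Of 7 other clock transcription factors, 5 were tested at 24 h and 6 at 48 h, and Rora was listed at 0. Rora lies on chromosome 9, whose genes were all listed at 0, so its level is not known here. With U46619, Bhlhe40 (DEC1), a repressor at E-boxes, rose at 24 h (0.60, edgeR FDR 0.00338) and 48 h (0.40), and Nfil3 (E4BP4), which competes with the PAR bZIP factors for D-boxes, rose at 24 h (0.75, edgeR FDR 0.0186) and 48 h (0.76). These 2 were the only DEG of the list with U46619 at either time, beside 27.6% of all genes at 24 h and 9.77% at 48 h. With EGF+U46619 Bhlhe40 rose at 24 h (0.66), 1 of 5 tested beside 33.1% of all genes, while Nfil3 did not pass (0.42, edgeR FDR 0.173), and at 48 h both rose (0.54 and 0.62), 2 of 6 beside 13.7%. With EGF+AngII+U46619 at 24 h, Bhlhe40 (0.65) and Nfil3 (0.62) rose and Cry2 (−0.34), a second CRY repressor, fell, 3 of 5 tested beside 34.3% of all genes.

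Of 7 genes for the turnover of PER and CRY proteins, 2 were DEG with U46619 at 24 h, a share near the 27.6% of all genes tested and so no result about the list. Csnk1e, a casein kinase that phosphorylates PER proteins, rose (0.40, edgeR FDR 0.0106), and Btrc, an F-box protein that recognises phosphorylated PER, fell (−0.49, edgeR FDR 0.00109). With EGF+U46619 the same genes passed at 24 h, Csnk1e at 0.39 and Btrc at −0.44, beside 33.1% of all genes. With EGF+AngII+U46619 at 24 h, 1 of the 7 rose and 2 fell, beside 34.3% of all genes. At 48 h 0 of 7 were DEG with U46619, with 4 under an unadjusted p of 0.05 in edgeR, and with EGF+U46619 Csnk1d (0.18) and Csnk1e (0.23) rose, 2 of 7 beside 13.7% of all genes (7.0% higher). Of 9 clock-controlled genes of many tissues, 7 were tested, and 2 were DEG with U46619 at 24 h, again near that share. Usp2 and Leo1, which were not tested, lie on chromosome 9 and were listed at 0 with all its genes. Wee1, a kinase that delays mitosis, rose with U46619 (0.58, edgeR FDR 0.00954), EGF+U46619 (0.87) and EGF+AngII (0.64) at 24 h. Por rose with U46619 at 24 h (0.43, edgeR FDR 0.0405) and 48 h (0.52) and with EGF+U46619 at 24 h (0.55) and 48 h (0.63). With EGF+AngII+U46619 at 24 h, Por (0.63), Wee1 (0.68) and Tspan4 (0.44) rose and Klf9 (−0.55) fell, 4 of 7 beside 34.3% of all genes.

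Likeness between genes was described by Pearson's r of log2 levels centred within culture sets, over 42 libraries at 24 h, with the value over 40 libraries at 48 h after it. The libraries of a set share their mouse, and all share the effect of the agonists. Dbp and Tef were most alike among the members at 24 h (0.88, and 0.75 at 48 h), and Dbp with Nr1d1 had 0.80 at 24 h and 0.20 at 48 h. Per3 with Tef had 0.64 at 24 h and 0.76 at 48 h, Per2 with Nr1d2 0.67 and 0.09, and Per3 with Ciart −0.70 and −0.33.

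Among all other genes, the 3 most like Per3 at 24 h were Pard3b (0.95, 0.67), Pik3r1 (0.94, 0.56) and Ppp4r1l.ps (0.94, 0.88). For Tef they were Tbkbp1 (0.91, 0.70), Slc27a1 (0.90, −0.30) and Gm2a (0.90, 0.63), and for Dbp Slc27a1 (0.90, 0.02), Ubb.ps (0.86, 0.39) and Ubb (0.85, 0.42), of which the last 2 may share reads as gene and pseudogene. Nr1d2 was most like Kdm3a (0.86, 0.77), Fam171b (0.86, 0.80) and B3galnt2 (0.86, 0.36), and Nr1d1 most like Bag3 (0.82, 0.52), Trip10 (0.79, 0.36) and Ifi30 (0.78, 0.08). Ciart was most like Smim3 (0.89, 0.35), Aif1l (0.87, 0.39) and Trub2 (0.87, 0.13). Per1 had Pip5k1c (0.84, 0.68), Atg2a (0.83, 0.57) and Ulk1 (0.81, 0.34), and Per2 had Trio (0.79, 0.59), Ubr2 (0.77, 0.46) and Gm2808 (0.76, 0.40). For Cry1 the 24 h values were lowest, with Hs3st3b1 (0.68, 0.13), Mycn (0.66, −0.46) and Ezr (0.63, −0.11), and Hlf had Ptger4 (0.82, 0.53), Col15a1 (0.81, 0.12) and Itgb2 (0.77, −0.34). These genes were chosen by their r at 24 h, a choice that favours that time point over 48 h.

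The 10 genes lie on 8 chromosomes of the mouse genome (GRCm38). Per3 (ENSMUSG00000028957) spans chr4:151003652-151044665 on the minus strand, Tef (ENSMUSG00000022389) chr15:81802421-81826863 on the plus strand, Nr1d2 (ENSMUSG00000021775) chr14:18204054-18239127 on the minus strand, Per2 (ENSMUSG00000055866) chr1:91415982-91459324 on the minus strand and Ciart (ENSMUSG00000038550) chr3:95878503-95882251 on the minus strand. Of the remaining genes, Per1, Nr1d1 and Hlf lie on chromosome 11, Cry1 on chromosome 10 and Dbp on chromosome 7. Exons of 3 members overlap those of a gene on the other strand, by 539 bases or 18.0% for Dbp with Sphk2, 263 bases or 8.55% for Nr1d1 with Thra, and 193 bases or 2.45% for Tef with Gm17597. The paper names no strand option for its counting, and reads there cannot be assigned if counting ignored strand.

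Promoter sequences from RefSeq (GRCm38.p6), 250 bases before to 50 after a gene's start, were found for 9 of 10 members, in 11 entries. They were searched on both strands for the E-box CACGTG, bound by CLOCK and ARNTL, the D-boxes TTATGTAA, TTACGTAA and TTATGCAA, the RRE core AGGTCA and the cAMP response element TGACGTCA. An E-box was in promoters of 4 members (Ciart, Cry1, Per1 and Tef), beside 7.15% of all 32851 promoters. A D-box was in 2 (Per3 and Per1), beside 1.78%, an RRE core in 2 (Nr1d2 and Per1), beside 16.3%, and the cAMP response element in 1 (Hlf), beside 1.79%. A match is a description of letters and not evidence of binding. The promoters below are shown for Per3 and Tef, which were DEG with U46619 at both time points, and for Ciart, which was higher with U46619 in each set, with the matched letters in capitals: Ciart at chr3:95882179-95882478 on the minus strand with 3 E-boxes, Per3 at chr4:151044616-151044915 on the minus strand with 2 D-boxes, and Tef, from 1 of its 2 entries, at chr15:81811164-81811463 on the plus strand with 1 E-box.
Ciart: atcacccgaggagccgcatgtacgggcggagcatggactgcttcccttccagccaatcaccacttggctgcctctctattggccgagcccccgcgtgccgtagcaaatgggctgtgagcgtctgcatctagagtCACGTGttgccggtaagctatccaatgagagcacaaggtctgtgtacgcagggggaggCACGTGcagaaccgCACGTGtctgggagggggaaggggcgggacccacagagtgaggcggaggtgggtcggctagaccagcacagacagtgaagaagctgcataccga
Per3: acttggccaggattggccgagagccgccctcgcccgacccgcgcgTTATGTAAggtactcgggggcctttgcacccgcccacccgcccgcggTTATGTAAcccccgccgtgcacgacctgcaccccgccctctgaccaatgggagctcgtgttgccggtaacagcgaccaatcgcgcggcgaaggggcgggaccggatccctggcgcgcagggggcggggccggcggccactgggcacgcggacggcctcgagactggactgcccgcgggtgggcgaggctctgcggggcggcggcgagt
Tef: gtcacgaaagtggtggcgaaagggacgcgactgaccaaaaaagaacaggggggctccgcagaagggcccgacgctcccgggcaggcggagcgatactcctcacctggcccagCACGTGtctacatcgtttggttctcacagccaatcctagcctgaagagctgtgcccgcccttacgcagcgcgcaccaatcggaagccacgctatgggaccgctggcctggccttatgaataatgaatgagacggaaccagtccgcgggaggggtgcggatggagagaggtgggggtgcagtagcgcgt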

How the data were processed

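Raw counts per gene were deposited, which the authors made by mapping to mm10 (HISAT2 2.1.0) and counting over exons (featureCounts), multimapping reads included. Here, 82 libraries were used, 42 at 24 h and 40 at 48 h, with 16483529 to 33916114 counts each, so genes with few counts, such as Hlf and Ciart, are measured with less precision. Genes that passed filterByExpr at a time point were tested there, and a DEG had to pass it at both time points. They were tested with edgeR 4.0.16 (quasi-likelihood) and DESeq2 1.42.0 in R 4.3.3, with Benjamini-Hochberg adjustment over all genes, separately per time point. Per-set changes used a pseudocount of 0.5 FPM. Python 3.11.15, pandas 2.3.3, numpy 2.4.6 and matplotlib 3.10.9 were used for tables and plots. The methods were tested on simulated data for U46619 against control. At 24 h, 24 of 66 genes changed 1.5-fold were recovered, 53 of 67 changed 2-fold and 64 of 67 changed 4-fold. At 48 h these were 45 of 66, 63 of 67 and 66 of 67. A member that did not pass may therefore still have changed by a small fold.

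The culture set was a term of the fit. At 24 h sets are mice, and same-set libraries deviated together (r = 0.60 to 0.86). At 48 h the set was chosen with an earlier analysis known in which the mouse numbers of the labels gave fewer DEG. There r with the own set was −0.33 to 0.91. The mouse numbers are an alternative. The sets most alike were not always those of 1 mouse by label, but correlations of expression cannot tell which mouse a culture came from. They are therefore no ground for setting the mouse labels aside. The other alternatives were other filters, DESeq2 alone, only the groups compared, no set term, other pseudocounts, 1 batch alone and each replicate left out. Leaving out 2 single libraries, the 24 h EGF+AngII+U46619 library of replicate 3 and the 48 h control of replicate 4 in the EGF/AngII batch, was chosen after seeing the data, the former partly for its low Per2, Per3 and Nr1d2. The former also had a normalisation factor (trimmed mean of M values) of 0.646, beside 0.836 to 1.126 in the other libraries at 24 h.

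Members and lists were chosen with earlier results of these data known. Named were all 10 members, genes of the other clock lists that were DEG with U46619, EGF+U46619 or EGF, the activators, the most abundant markers and those at 0, 4 reference genes, and the 3 genes most like each member. Not every result of the gene lists is reported here.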

Additional observations from a re-analysis of the deposited data

Results flagged for a closer look

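Among 110 comparisons of a member's per-set log2 changes from control, 9 had 1 set far from the others of its group, and chance flags about 1 in 20 groups. At 24 h these were Per2 with EGF in replicate 1 (1.17, the others 0.34 to 0.60), Per2 with EGF+AngII+U46619 in replicate 3 (−1.43, the others 0.06 to 0.86) and Per3 with EGF+AngII in replicate 3 (−1.16, the others −0.08 to 0.46).

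At 48 h, replicate 2 of the EGF/U46619 batch stood apart with EGF+U46619 for Per3 (−1.02, the others −0.15 to 0.10) and Tef (−0.75, the others −0.27 to −0.14). In the EGF/AngII batch, replicate 4 stood apart for Cry1 with EGF (0.63, the others −0.11 to 0.20) and with AngII (0.48, the others −0.23 to −0.04). Both of these use the control whose levels resembled another set. Replicate 2 stood apart for Nr1d2 with EGF+AngII (0.25, the others −0.10 to −0.01). Its control had r = 0.68 with its own set and 0.68 with replicate 1. Replicate 6 stood apart for Dbp with EGF (1.15, the others −0.32 to 0.45), where its control had 8.94 FPM.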

How the results depend on the processing

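Followed through the alternatives were 80 log2 fold changes of members, not all of them printed in the text. Of their values, 1327 kept direction and side of the threshold, 87 lost the call, 21 gained one and 50 changed sign. None of the sign changes was of a result that passed the test. Among 140 others, 203 of the values changed sign. Depth limits Hlf and Ciart most. With at least 10 counts required in every library Hlf was not tested and gave no value. The cause of the differences below was not tested.

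Counts of members called that moved by over 1.5 times are given first. Without the FPM minimum, U46619 against EGF at 24 h had 3 in place of 1 and EGF+U46619 against EGF 1 in place of 0. With no filter on low counts, EGF+AngII+U46619 had 1 in place of 2, U46619 against EGF at 24 h 0 in place of 1, and at 48 h U46619 0 in place of 2 and EGF+U46619 0 in place of 1. With only the groups compared, EGF+AngII+U46619 and 48 h EGF+U46619 had 0, and 48 h U46619 against EGF 1. In the EGF/U46619 batch alone 48 h EGF+U46619 had 2. Smaller moves at 24 h were these. Without the FPM minimum, under which Ciart gained a call, U46619 had 4 in place of 3, EGF+U46619 5 in place of 4 and EGF+AngII+U46619 3 in place of 2. With no filter on low counts EGF+U46619 had 3 in place of 4, without Per2. With only the groups compared U46619 had 2 in place of 3, with Per2 gained and Nr1d2 and Tef lost, and EGF+U46619 3 in place of 4, without Tef.

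In the fit with no replicate block every call was lost: 0 members passed with U46619, EGF+U46619, EGF+AngII+U46619 and U46619 against EGF at 24 h, and 0 with U46619, EGF+U46619, U46619 against EGF and EGF+U46619 against EGF at 48 h. With the mouse number as block, 48 h U46619 had 0 and U46619 against EGF 1, and with mouse and batch as block all 4 comparisons at 48 h had 0.

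With each replicate left out, members called ranged at 24 h from 1 to 3 (U46619), 1 to 4 (EGF+U46619), 1 to 3 (EGF+AngII+U46619), 0 to 1 (U46619 against EGF) and 0 to 1 (EGF+U46619 against EGF), and at 48 h from 0 to 3 (U46619), 0 to 2 (EGF+U46619), 0 to 3 (U46619 against EGF) and 1 to 2 (EGF+U46619 against EGF). With EGF+AngII at 24 h it was 0 each time. Without the single EGF+AngII+U46619 library of replicate 3, chosen after seeing the data, it was 4 with U46619, 1 with EGF+AngII, 4 with EGF+U46619, 3 with EGF+AngII+U46619, 1 for U46619 against EGF and 1 for EGF+U46619 against EGF.

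Signs changed for log2 fold changes near 0. With no replicate block they were 0.0008 for Cry1 with U46619 at 24 h, −0.0174 for Nr1d2 in EGF+U46619 against U46619, 0.0440 for Per2 in EGF+AngII against EGF, and 0.0920 and 0.0132 for Per2 and Cry1 with U46619 at 48 h. In a fit of the groups alone they were −0.0114 for Tef in EGF+AngII+U46619 against EGF+U46619, and 0.14 and 0.14 for Per2 and Hlf with U46619 at 48 h. For U46619 at 48 h, DESeq2 gave 0.0354 for Hlf, the filter at 10 counts −0.0042 for Per1, the mouse number as block 0.0085 for Per2 and 0.0122 for Cry1, mouse and batch as block −0.0132 for Per1 and 0.0516 for Hlf, the EGF/U46619 batch alone 0.11 for Per2 and 0.22 for Hlf, and leaving out the control of replicate 4 in the EGF/AngII batch 0.0866 for Hlf. In the EGF/U46619 batch alone the interaction of EGF and U46619 at 48 h was −0.12 for Per3.

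With each replicate left out, lowest and highest values at 24 h were −0.0514 and 0.0683 for Cry1 with U46619, −0.26 and 0.11 for Per2 in U46619 against EGF, −0.18 and 0.18 for Per2 in EGF+U46619 against EGF, −0.0946 and 0.18 for Nr1d2 and −0.0560 and 0.0068 for Tef in EGF+U46619 against U46619, −0.16 and 0.15 for Per2 and −0.0549 and 0.0391 for Tef in EGF+AngII against EGF, and −0.29 and 0.0519 for Nr1d2 and −0.0682 and 0.0985 for Tef in EGF+AngII+U46619 against EGF+U46619, where without the single library of replicate 3 Nr1d2 was 0.0022 and Tef −0.0696, and Cry1 with U46619 0.0150. At 48 h with U46619 they were −0.22 and 0.15 for Per2, −0.14 and 0.0341 for Cry1, −0.0640 and 0.0720 for Per1, −0.40 and 0.38 for Hlf and −0.0698 and 0.11 for Nr1d1, and −0.0583 and 0.0235 for Tef in EGF+U46619 against U46619. The mean per-set change of Hlf with a pseudocount of 0.1 was −0.98 with U46619 at 24 h and −0.43 with EGF+U46619 at 48 h.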
